A study of Mus musculus with 23 samples.

Results

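The genes described here are 47 cell cycle and DNA replication genes, 20 that act in S phase and 27 that act in mitosis, chosen by gene symbol. All 47 were found in both deposited tables, among 22412 rows in the table of tissues and 28096 rows in the table of sorted alpha cells. The study measured bulk RNA-seq in 23 mouse libraries to ask what loss of the glucagon receptor, GCGR, does to alpha cells and what distinguishes the tumors that follow. The 7 tumors came from homozygous GCGR knockouts, and the 8 non-tumor pancreas samples they were set against carried the same homozygous knockout, with treatment given as none for both. The 5 knockout alpha cell samples came from homozygous knockouts and the 3 heterozygous alpha cell samples from heterozygous animals, both given tamoxifen, and both were sorted by FACS from islets. The protocol attached to every sample describes tamoxifen at 200 mg/kg on 5 days, and islets isolated after 14 to 21 further days. The labels say nothing of the Cre line, the ages of the mice or whether each library was a separate animal. P-values therefore measure the spread between these libraries, which may be technical.

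A dividing cell first copies its DNA in S phase and then separates the copies in mitosis, and each step uses its own set of genes. E2F factors, held back by RB proteins in resting cells, switch on the S phase genes that license origins, build the replication fork and supply nucleotides. Mitotic genes peak later, and many carry a CCAAT element and a cell cycle homology region (CHR) near their start, which the MuvB complex uses to silence them in resting cells and to raise them before mitosis. Adult alpha cells rarely divide, and interrupted glucagon signalling is known to make alpha cells of mice multiply.

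The 2 classes differed in their promoter letters, which took no part in choosing them. Windows from RefSeq on GRCm38.p6, running from 250 bases before to 50 bases after each start, were present for 38 of the 47 genes. The CHR core TTTGAA stood on either strand in 16 of 22 mitotic windows (72.7%), 1 of 16 S phase windows (6.25%) and 18.1% of all 27025 windows in the table. CCAAT stood in 19 of 22 mitotic windows (86.4%), 9 of 16 S phase windows (56.2%) and 37.9% of all windows. An E2F word was taken as TTCCCGC, or as its variant TTCGCGC, or the variant TTGCCGC, or the variant TTGGCGC. Such a word stood in 4 of 22 mitotic windows (18.2%), 10 of 16 S phase windows (62.5%) and 9.69% of all windows. CCAAT read on the opposite strand can share letters with the E2F word TTGGCGC. These matches are descriptions of letters, not binding sites.

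Windows of 3 mitotic and 3 S phase genes described below are printed 5′ to 3′ along the gene's strand, with the CHR, CCAAT and E2F letters of either strand in capitals and all else in lower case. Each holds the gene's first annotated base in GENCODE M21, as did all 22 mitotic windows but 10 of the 16 S phase windows. The E2f1 window is among the 6 that do not hold it, has none of the words and is not printed. Cdk1 holds all 3 kinds of word, Ccnb2 and Plk1 hold CHR and CCAAT, Rrm1 and Rrm2 hold CCAAT and E2F words, and Tyms holds none of the words.
Cdk1 (chr10:69352863-69353162, minus strand): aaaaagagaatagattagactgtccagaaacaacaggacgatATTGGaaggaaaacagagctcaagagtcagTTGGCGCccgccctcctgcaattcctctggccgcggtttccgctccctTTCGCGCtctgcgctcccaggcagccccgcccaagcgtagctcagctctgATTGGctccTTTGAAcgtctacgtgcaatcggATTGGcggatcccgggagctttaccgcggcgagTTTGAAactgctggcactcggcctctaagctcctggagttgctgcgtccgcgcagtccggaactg
Ccnb2 (chr9:70421505-70421804, minus strand): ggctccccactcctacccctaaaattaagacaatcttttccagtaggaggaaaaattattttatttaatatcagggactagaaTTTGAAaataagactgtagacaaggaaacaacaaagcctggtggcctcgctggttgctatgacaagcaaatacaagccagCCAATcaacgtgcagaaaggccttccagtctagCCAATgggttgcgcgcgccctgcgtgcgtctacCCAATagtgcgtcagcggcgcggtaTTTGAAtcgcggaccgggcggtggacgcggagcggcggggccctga
Plk1 (chr7:122159185-122159484, plus strand): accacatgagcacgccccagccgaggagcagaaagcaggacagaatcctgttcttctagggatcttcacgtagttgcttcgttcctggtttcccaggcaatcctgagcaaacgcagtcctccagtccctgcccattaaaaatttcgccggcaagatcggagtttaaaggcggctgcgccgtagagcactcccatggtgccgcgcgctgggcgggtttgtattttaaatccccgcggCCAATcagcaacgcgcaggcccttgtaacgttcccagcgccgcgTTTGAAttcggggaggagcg
Rrm1 (chr7:102441445-102441744, plus strand): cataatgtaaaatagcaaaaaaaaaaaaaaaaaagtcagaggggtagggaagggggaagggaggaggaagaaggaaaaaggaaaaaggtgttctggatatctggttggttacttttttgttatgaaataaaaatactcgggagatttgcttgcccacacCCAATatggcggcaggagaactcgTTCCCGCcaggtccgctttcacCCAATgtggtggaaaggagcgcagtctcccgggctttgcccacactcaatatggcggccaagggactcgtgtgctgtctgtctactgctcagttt
Rrm2 (chr12:24708004-24708303, plus strand): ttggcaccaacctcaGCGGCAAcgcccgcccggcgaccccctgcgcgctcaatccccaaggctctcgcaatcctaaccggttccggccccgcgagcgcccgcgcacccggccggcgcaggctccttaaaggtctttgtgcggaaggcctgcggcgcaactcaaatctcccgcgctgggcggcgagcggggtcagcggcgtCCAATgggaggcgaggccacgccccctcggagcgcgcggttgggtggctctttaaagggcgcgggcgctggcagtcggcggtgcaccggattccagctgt
Tyms (chr5:30073576-30073875, minus strand): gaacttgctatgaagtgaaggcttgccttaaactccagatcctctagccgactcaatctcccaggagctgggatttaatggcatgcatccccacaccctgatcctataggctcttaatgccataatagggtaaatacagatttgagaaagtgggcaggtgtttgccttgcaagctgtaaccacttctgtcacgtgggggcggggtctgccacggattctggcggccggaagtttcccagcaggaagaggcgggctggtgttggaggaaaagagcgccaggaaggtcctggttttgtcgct

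Values are RPKM, reads per kilobase of gene length and per unit of library size, divided by 1 factor per library so that the typical gene has the same level in every library of its table. The factors were 1.75 to 2.12 in tumors and 0.472 to 0.828 in non-tumor pancreas. The 2 tables were scaled and tested apart. The alpha cell hormone gene Gcg stood at 68810 to 108400 scaled RPKM in tumors and 71.7 to 550 in non-tumor pancreas. The summed acinar markers ran from 1536 to 48710 in tumors and from 401000 to 907400 in non-tumor pancreas, and acinar genes thus led the non-tumor libraries. Gcgr was listed at 0 in all 7 tumors and at up to 0.195 scaled RPKM in non-tumor pancreas, and it was at 0 in all 3 heterozygous and 4 of 5 knockout alpha cell libraries, so the alpha cell table gives no check of the deletion. Whole reads behind the tissue values could be recovered for all 47 genes to within 6.4e-06 of a read. The recovered reads summed over the 47 genes to 4149 to 15233 in a tumor and 508 to 3355 in a non-tumor library, and 23 of the 47 genes had a non-tumor median under 10 reads.

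In tumors against non-tumor pancreas, 14 of 27 mitotic genes rose and none fell with every gene tested that had a value, against a background of 34.5% of 17573 genes higher and 16.4% lower. Of the 20 S phase genes 5 rose and 1 fell in the same test, a share no larger than the background. Under another scaling, given next, few mitotic genes rose and more S phase genes fell than rose. The test was limma on log2(scaled RPKM + 1), with Benjamini-Hochberg adjustment over all genes and a threshold of 0.05. The median log2 fold change was 0.43 over the 27 mitotic genes, 0.14 over the 20 S phase genes and 0.04 over all genes. After low genes were removed, 10 of 15 mitotic genes rose, and 2 of 12 S phase genes rose and 1 fell, against 44.9% higher and 22.8% lower of 9710 genes. A gene passed that filter with 1 scaled RPKM in 7 libraries, which a gene high in tumors alone meets, so no weight is placed on these filtered counts. Below, values of single genes are from the filtered fit unless given as without the filter or under another setting. Of the genes called in the filtered fit, Top2a alone missed the threshold without the filter.

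These counts rest on the scaling. When each library was centred after the pseudocount was added instead of before it, 1 of 16 mitotic genes rose and 1 fell, and 2 of 14 S phase genes rose and 6 fell, while 28.6% of 10220 genes rose and 36.7% fell. On the deposited scale all 16 mitotic and all 14 S phase genes tested were higher, as were 90.7% of 10220 genes, with 3.68% lower. The median of all genes moved with the scaling, with a log2 fold change of 0.22 in the filtered fit, 1.46 on the deposited scale and −0.08 with centring after the pseudocount. With centring after a pseudocount of 0.1, 4 mitotic genes rose, and 2 S phase genes rose and 2 fell, while 31.3% of genes rose and 30.5% fell. With quantile normalization 2 mitotic genes rose, and 2 S phase genes rose and 2 fell, while 32.6% of genes rose and 29.8% fell. With array weights 14 of 15 mitotic genes rose, and 6 of 12 S phase genes rose and 1 fell, while 49.6% of genes rose and 25.3% fell. With the replicate number as a block 6 of 15 mitotic genes rose, and 2 of 12 S phase genes rose and 1 fell, while 42.1% of genes rose and 21.5% fell. Among the genes that passed the filter, only E2f1, Rrm1 and Cdk1 were called higher in every setting that left them to be tested. With centring after the pseudocount 3 of 14 S phase and 9 of 16 mitotic genes had a positive sign. In bulk tissue, fewer cells of a type and less RNA per cell cannot be told apart.

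**Figure D1:**
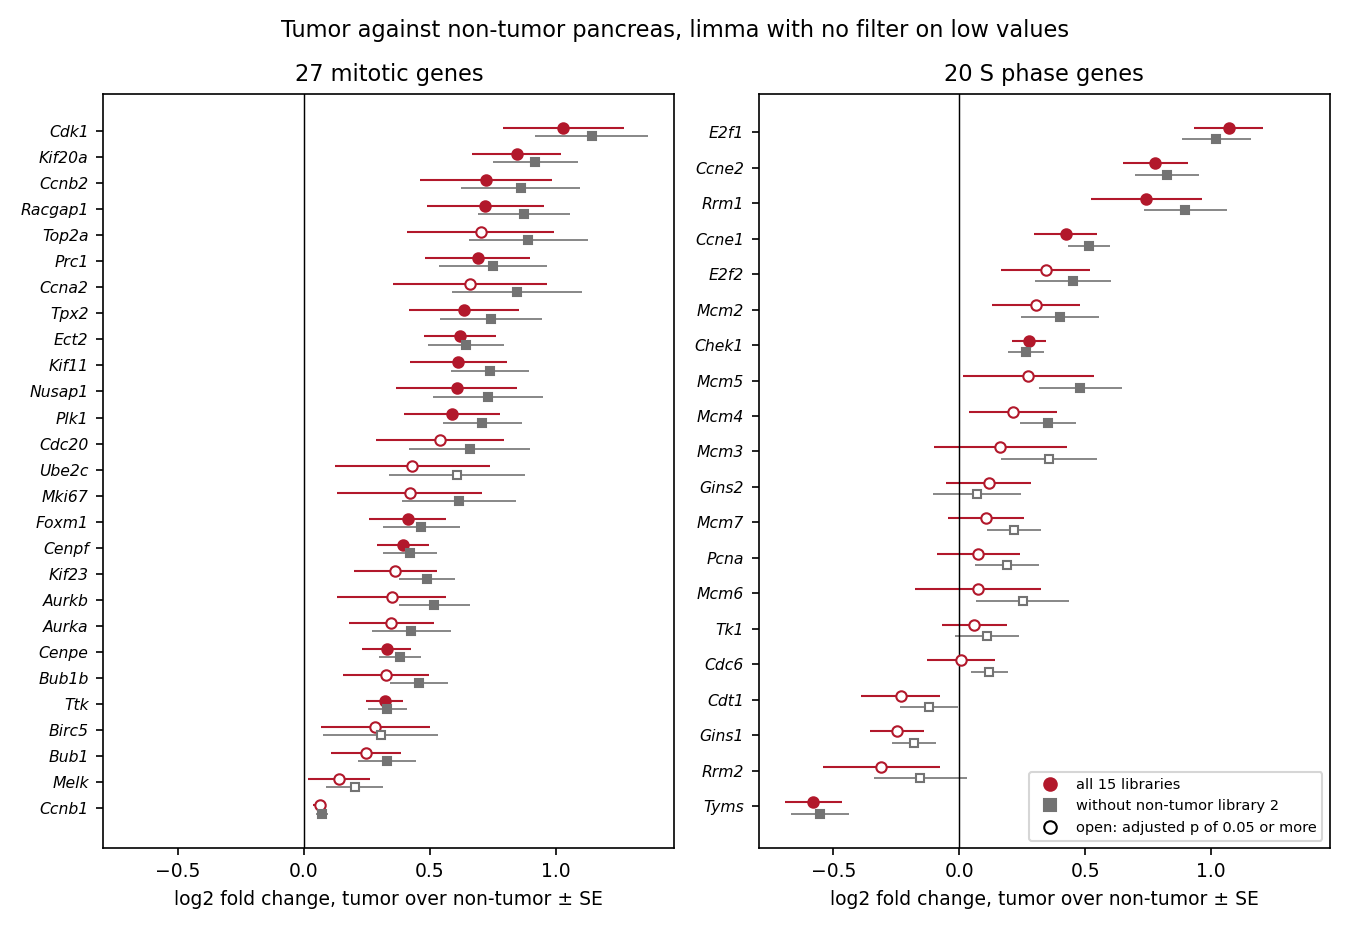
Log2 fold change of each gene in tumors over non-tumor pancreas, ± SE, from limma on log2(scaled RPKM + 1) with no filter, for the 27 mitotic genes (left) and the 20 S phase genes (right). Circles use all 15 libraries and squares leave out non-tumor library 2, and filled symbols have an adjusted p under 0.05. All 27 mitotic genes sit right of 0, while S phase genes run from Tyms at −0.58 to E2f1 at 1.07.

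Among the S phase regulators E2f1 stood apart. E2f1, the activator that drives S phase genes, had 3.49, 2.95, 4.79, 4.24, 4.48, 5.99 and 3.08 scaled RPKM in tumors 1 to 7. In non-tumor pancreas it had 1.46, 0.902, 2.39, 1.29, 1.11, 1.51, 1.32 and 1.52 scaled RPKM in libraries 1 to 8. Every tumor lay above every non-tumor library, and E2f1 was the only one of the 47 genes, 27 of which passed the filter, without overlap. Of the 9710 genes that passed, 23.6% were wholly higher and 11.2% wholly lower in tumors. Its log2 fold change was 1.07 ± 0.14 (SE), with an adjusted p of 2.49e-06 in limma. E2f1 rested on 224 to 459 recovered reads per tumor and 13 to 28 per non-tumor library. E2f2, a second activator of the same family, reached 1.53 scaled RPKM in tumors and 1.60 in non-tumor library 2, and its difference did not pass without the filter (0.34 ± 0.18, adjusted p = 0.126, limma).

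Both cyclin E genes, which activate Cdk2 at the entry to S phase, rose in the unfiltered fit but were too low for the filtered one. Ccne2 ran from 0.533 to 2.22 scaled RPKM with a median of 1.16 in tumors, and from 0.0765 to 0.586 with a median of 0.290 in non-tumor pancreas. Tumor 3 alone fell inside the non-tumor range. The fold change of Ccne2 was 0.78 ± 0.13 (adjusted p = 0.000122) and that of Ccne1 0.42 ± 0.12 (adjusted p = 0.01), both in limma without the filter. With centring after the pseudocount, Mcm2, Rrm1 and E2f1 were the 3 S phase genes of positive sign, so the sign of Ccne1 turned. Ccne2 was not tested there. Ccne2 shares 17.4% of its exon bases with Ints8 on the opposite strand, which was itself higher in tumors (0.31 ± 0.09), and strand was not stated for the counting.

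Among the origin licensing genes, Mcm2 to Mcm7 encode the 6 subunits of the helicase loaded at origins, and none of the 6 passed in either fit with all libraries. Mcm2 had the largest difference of the 6, at 0.31 ± 0.17 (adjusted p = 0.119, limma). Mcm5 had 1.96, 1.23, 1.11, 2.27, 2.84, 2.16 and 2.77 scaled RPKM in the tumors and 0.929, 5.74, 1.30, 1.88, 1.06, 0.710, 1.61 and 0.717 in the non-tumor libraries. Library 2, at 5.74, was the highest of all, and 5 of 7 tumors lay above each of the other non-tumor libraries. Without that library Mcm2, Mcm4 and Mcm5 passed, with Mcm5 at 0.48 ± 0.16 (adjusted p = 0.0130, limma). With centring after the pseudocount the signs of Mcm3 to Mcm7 turned, to −0.22 for Mcm5. Cdc6 and Cdt1, which load the helicase, ran from 0.173 to 0.597 and from 0.290 to 1.02 scaled RPKM in tumors. The same loaders ran from 0.0677 to 1.34 and from 0.583 to 2.41 in non-tumor pancreas, and neither passed.

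None of the fork components Pcna, Gins1 and Gins2 passed with all libraries. Pcna, the sliding clamp of the replicative polymerases, had 1.11, 1.29, 1.15, 1.73, 2.38, 1.82 and 1.72 scaled RPKM in the tumors. Non-tumor libraries had 0.744, 3.22, 1.07, 1.65, 1.48, 1.64, 1.27 and 1.06, and the groups overlapped throughout (0.08 ± 0.16, adjusted p = 0.685, limma). Gins1 and Gins2, parts of the helicase activator, gave −0.25 ± 0.11 (adjusted p = 0.0687, without the filter) and 0.12 ± 0.16 (adjusted p = 0.542) in limma. Gins2 shares 67.3% of its annotated exon bases with Gse1 on the opposite strand, which was higher in tumors by 1.15 ± 0.11. How many of the counted reads came from the shared bases is unknown. In tumor 1, 54 reads of Gins2 gave 2.835 deposited RPKM over 4097 exon bases, and 1666 reads of Mki67 gave 5.118 over 10061. The lengths counted were thus not the annotated exon lengths. Chek1, the checkpoint kinase that guards stalled forks, was higher without the filter (0.28 ± 0.07, adjusted p = 0.00312, limma) from levels of 0.353 to 0.667 in tumors and 0 to 0.45 in non-tumor pancreas.

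Among the genes that supply nucleotides Rrm1 rose and Tyms fell, although Tyms was higher in tumors on the deposited scale. Rrm1, the large subunit of ribonucleotide reductase, had 4.21, 3.05, 2.15, 4.17, 5.93, 4.51 and 5.54 scaled RPKM in the tumors. It had 0.984, 5.46, 2.01, 2.11, 1.67, 2.05, 1.74 and 1.64 in the non-tumor libraries, and only library 2 reached into the tumor range. The difference passed, at 0.74 ± 0.21 (adjusted p = 0.00507 with the filter and 0.0106 without it, limma). Rrm2, the small subunit that is made in S phase, ran from 1.10 to 3.58 scaled RPKM with a median of 2.14 in tumors and from 1.46 to 7.42 with a median of 2.74 in non-tumor pancreas (−0.31 ± 0.22, adjusted p = 0.226, limma). The Rrm1 to Rrm2 ratio within a library, which no library scaling touches, was 1.38 to 2.48 in tumors and 0.296 to 1.19 in non-tumor pancreas. That ratio was chosen after the values were seen and got no test.

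Tyms was the only gene of the 47 that fell with this scaling. Tyms, which makes thymidylate, had 3.18, 2.40, 1.7, 1.94, 2.95, 2.01 and 2.71 scaled RPKM in the tumors and 3.90, 4.80, 3.24, 4.68, 4.2, 2.99, 4.62 and 4.22 in the non-tumor libraries. The groups touched only where tumor 1 lay above non-tumor library 6. The log2 fold change was −0.58 ± 0.12 (adjusted p = 0.000291, limma), but on the deposited scale the sign turned to 0.72. The E2f1 to Tyms ratio within a library was 1.10 to 2.98 in tumors and 0.188 to 0.737 in non-tumor pancreas, likewise chosen after the values were seen. Tk1, the salvage enzyme for thymidine, stayed under 1 scaled RPKM in all 15 libraries. Tyms and Pcna, like the mitotic genes Ccnb1 and Ccnb2, have processed copies annotated elsewhere in the genome, and the labels do not say how reads matching both places were counted.

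**Figure D2:**
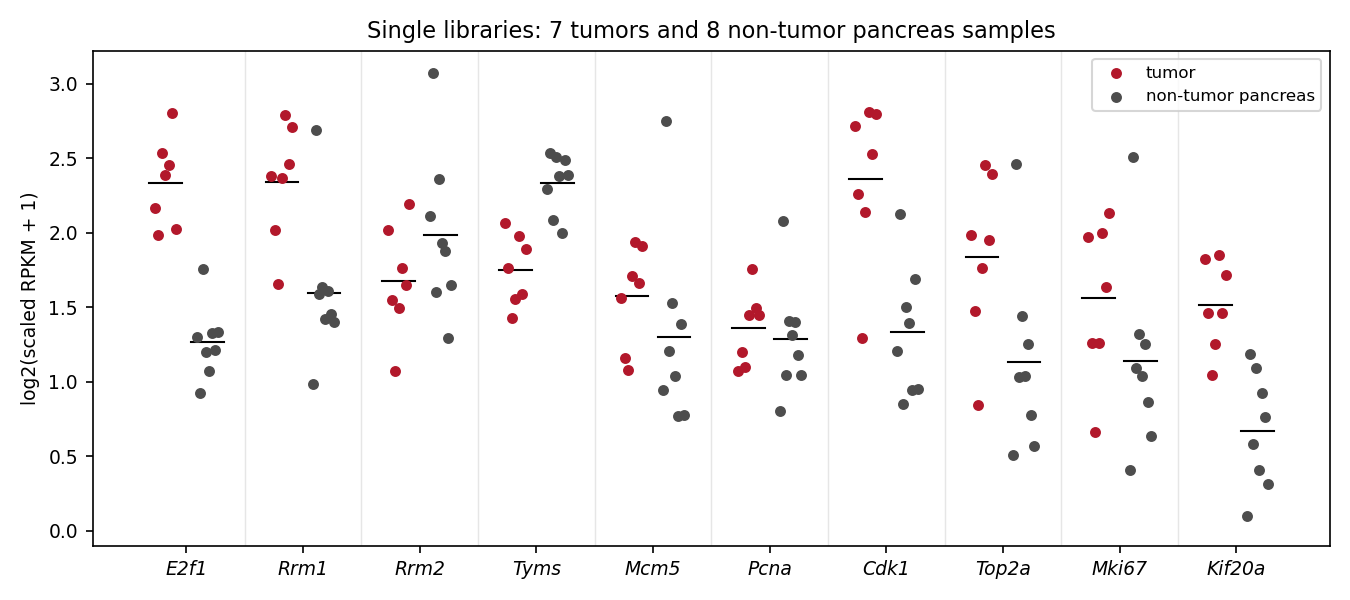
Log2(scaled RPKM + 1) of 10 genes in each of 7 tumors (red) and 8 non-tumor pancreas libraries (grey), with the mean of each group as a line. E2f1 separates the groups, Tyms is lower in tumors (2.41 against 4.08 mean scaled RPKM), and a single grey point, library 2, lies high for Rrm1, Rrm2, Mcm5, Pcna, Top2a and Mki67.

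Cdk1 had the largest log2 fold change of the 27 mitotic genes. Cdk1, the kinase that triggers mitosis, had 5.59, 3.79, 1.45, 3.41, 6.01, 4.78 and 5.95 scaled RPKM in the tumors and 1.31, 3.37, 0.804, 1.84, 1.63, 0.927, 2.23 and 0.936 in the non-tumor libraries. Of the tumors, number 3 alone lay in the range of the non-tumor libraries other than library 2. The difference was 1.03 ± 0.23 (adjusted p = 0.000754 with the filter and 0.0021 without it, limma). It rested on 72 to 351 reads per tumor and 6 to 38 per non-tumor library. Ccnb2, a B-type cyclin that activates Cdk1, ran from 0.662 to 3.52 with a median of 2.75 in tumors and from 0.155 to 2.71 with a median of 0.835 in non-tumor pancreas. Its difference was 0.72 ± 0.25 (adjusted p = 0.0161 with the filter and 0.031 without it, limma). Ccna2, the cyclin used in both S phase and early mitosis, gave 0.66 ± 0.29 and did not pass (adjusted p = 0.0516, limma). Ccnb1 had 1 to 8 reads in each tumor and 0 or 1 in each non-tumor library, too few to compare. Foxm1, the transcription factor that works with MuvB on mitotic promoters, rose by 0.41 ± 0.15 (adjusted p = 0.0208 with the filter and 0.0344 without it, limma).

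The common proliferation markers were less clear than Cdk1. Mki67, the gene of the Ki-67 antigen, had 2.92, 1.40, 0.587, 1.39, 3.00, 2.10 and 3.40 scaled RPKM in the tumors and 0.327, 4.68, 1.13, 1.5, 1.06, 1.39, 0.822 and 0.556 in the non-tumor libraries. Non-tumor library 2 held the highest value of all 15, and tumor 3 lay among the low non-tumor libraries. The difference did not pass with all libraries (0.42 ± 0.27, adjusted p = 0.180) and passed without library 2 (0.62 ± 0.21, adjusted p = 0.0171), both in limma, and its sign turned to −0.14 with centring after the pseudocount. Top2a, which untangles sister DNA, had 2.97, 1.77, 0.793, 2.40, 4.49, 2.87 and 4.27 scaled RPKM in the tumors. It had 0.425, 4.50, 1.04, 1.72, 1.06, 1.39, 0.714 and 0.486 in the non-tumor libraries. Its difference of 0.70 ± 0.28 passed with the filter (adjusted p = 0.0320) and missed the threshold without it (adjusted p = 0.0567), both in limma.

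Genes of the spindle and of cell separation made up most of the rest that rose. Kif20a, a kinesin of the central spindle, ran from 1.07 to 2.62 with a median of 1.76 in tumors and from 0.0732 to 1.28 with a median of 0.595 in non-tumor pancreas. Its 0.85 ± 0.17 passed (adjusted p = 0.000286 with the filter and 0.000862 without it, limma). However, 29.3% of Kif20a exon bases lie opposite Cdc23, which rose by 1.34 ± 0.11. How many of the counted reads came from these bases is unknown. Prc1, the midzone bundler (0.69), Racgap1 (0.72) and Ect2 (0.62 without the filter), which position the cleavage furrow, rose as well. So did Tpx2, Nusap1 and Kif11, which build spindle microtubules, at 0.63, 0.61 and, without the filter, 0.61. Prc1 shares 11.1% of its exon bases with Rccd1 on the opposite strand, which rose by 0.47 ± 0.11. Plk1, a kinase of mitotic entry, rose by 0.59 ± 0.18 (adjusted p = 0.00875 with the filter and 0.0172 without it, limma). The kinetochore genes Cenpe and Cenpf and the spindle checkpoint kinase Ttk rose by 0.33, 0.39 and 0.32 in the unfiltered fit. Ttk reached no more than 0.590 scaled RPKM in any tumor. With centring after the pseudocount the signs of Plk1, Tpx2 and Nusap1 turned to −0.15, −0.0043 and −0.10, and that of Kif11 turned as well.

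Other members of these families did not pass with all libraries. The checkpoint genes Bub1 and Bub1b gave 0.25 and 0.33, and the aurora kinases Aurka and Aurkb 0.35 each, all without the filter. Cdc20 and Ube2c, which drive destruction of mitotic cyclins, gave 0.54 (adjusted p = 0.0564) and 0.43 (adjusted p = 0.201), and the survivin gene Birc5 gave 0.28 (adjusted p = 0.227), all in limma. Kif23, the partner of Racgap1, and the kinase Melk gave 0.36 and 0.14 without the filter. Members of a single machine thus fell on both sides of the threshold.

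Summed up per library, the mitotic genes ranged more widely among tumors than between the group centres. The mean log2 level of the 27 mitotic genes was 1.45, 1.01, 0.56, 1.07, 1.54, 1.27 and 1.56 in tumors 1 to 7 and 0.34, 1.42, 0.65, 0.95, 0.74, 0.70, 0.49 and 0.40 in non-tumor libraries 1 to 8. Tumors 1, 5 and 7 were high, tumor 3 was as low as the typical non-tumor library, and library 2 was the only non-tumor sample among the high tumors. Tumor 3 was the lowest tumor for 26 of 27 mitotic and 14 of 20 S phase genes, although its E2f1 at 4.79 was the second highest. Tumors 5 and 7 were the highest for 10 and 11 mitotic genes. With centring after the pseudocount the order of the group means turned, with mitotic levels of 0.19 to 1.34 in tumors and 1.01 to 1.52 in non-tumor pancreas. The mean log2 level of the 20 S phase genes, on the scale used above, ran from 0.98 to 1.59 in tumors and from 0.93 to 1.82 in non-tumor pancreas.

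The balance of the classes within a library does not depend on the library scaling. Summed mitotic RPKM over summed S phase RPKM was 0.596 to 1.5 with a median of 1.08 in tumors and 0.372 to 0.885 with a median of 0.664 in non-tumor pancreas. Tumor 3, at 0.596, lay inside the non-tumor range, and the other 6 tumors lay above it, tumor 4 narrowly at 0.898. In sorted alpha cells the ratio was 0.710 to 2.10 with a median of 1.23 in knockouts, and 0.49 to 7.39 with a median of 1.375 in heterozygotes. Ratios as high as in tumors were thus not limited to tumors, though many of these genes were at 0 in alpha cells. The highest alpha cell ratios rested largely on single genes. In heterozygous library 1, at 7.39, Kif20a gave 17.05 and Ube2c 7.28 of a mitotic sum of 34.18 scaled RPKM, over an S phase sum of 4.63. In knockout library 1, at 2.10, Nusap1 gave 15.79 of a mitotic sum of 26.69. Knockout library 3, at 1.23, had none of the genes of either class at 0. These ratios are descriptions over chosen genes and carry no test.

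**Figure D3:**
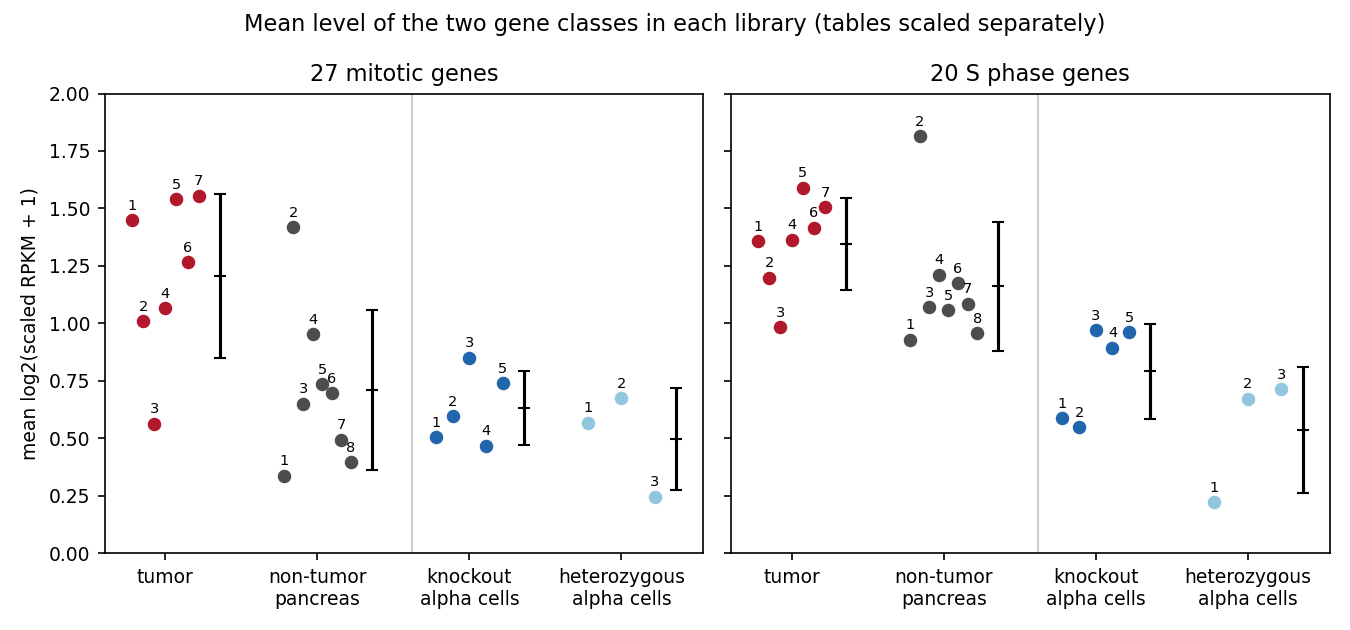
Mean log2(scaled RPKM + 1) of the 27 mitotic genes (left) and the 20 S phase genes (right) in each of the 23 libraries, numbered by replicate, with group mean ± SD (n = 7, 8, 5 and 3). Mitotic levels run from 0.56 to 1.56 in tumors and from 0.34 to 1.42 in non-tumor pancreas. The tissue and alpha cell tables were scaled apart, so heights compare only within a table.

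Non-tumor library 2 stood apart from the other 7. It was the highest non-tumor library for 16 of 20 S phase and 23 of 27 mitotic genes, though its E2f1, at 0.902, was the lowest. The sum of 12 immune marker genes was 47.2 to 429 scaled RPKM in tumors, 1208 in non-tumor library 2 and 26.2 to 294 in the other non-tumor libraries, with none of the 12 at 0 in library 2, 0 or 1 at 0 in each tumor and 0 to 2 in each other non-tumor library. The T cell gene Cd3e reached at most 1.18 scaled RPKM in tumors, against 13.6 in non-tumor library 2. Library 2 also had the lowest acinar sum of the 8, 401000 against 634800 or more. The part of these cells in the cell cycle values was not tested.

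Without library 2, 24 of 27 mitotic genes and 9 of 20 S phase genes rose and Tyms alone fell, against 36.5% of 17573 genes higher and 16.8% lower, in limma without the filter. Birc5, Ube2c and Melk were the 3 mitotic genes that then still missed the threshold. The 24 that rose include Ccnb1, which had 0 or 1 reads in each non-tumor library, too few to compare. With the filter the counts were 14 of 15 and 5 of 12, against 47% of 9710 genes higher and 23.4% lower. Rrm1, Ccne1 and Ccne2 then joined E2f1 as genes whose groups did not overlap. Only Rrm1 and E2f1 of these passed the filter, and of the 9710 genes that passed, 29% were wholly higher and 13.2% wholly lower in tumors. Without tumor 3 in place of library 2, 13 of 15 mitotic genes rose, and 2 of 12 S phase genes rose and 1 fell, against 44.9% higher and 22% lower. The mean mitotic level was 1.21 ± 0.36 in tumors (SD, n = 7), against 0.61 ± 0.21 in the other 7 non-tumor libraries (SD, n = 7), but 0.94 ± 0.42 in tumors against 1.17 ± 0.11 in those 7 with centring after the pseudocount.

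**Figure D4:**
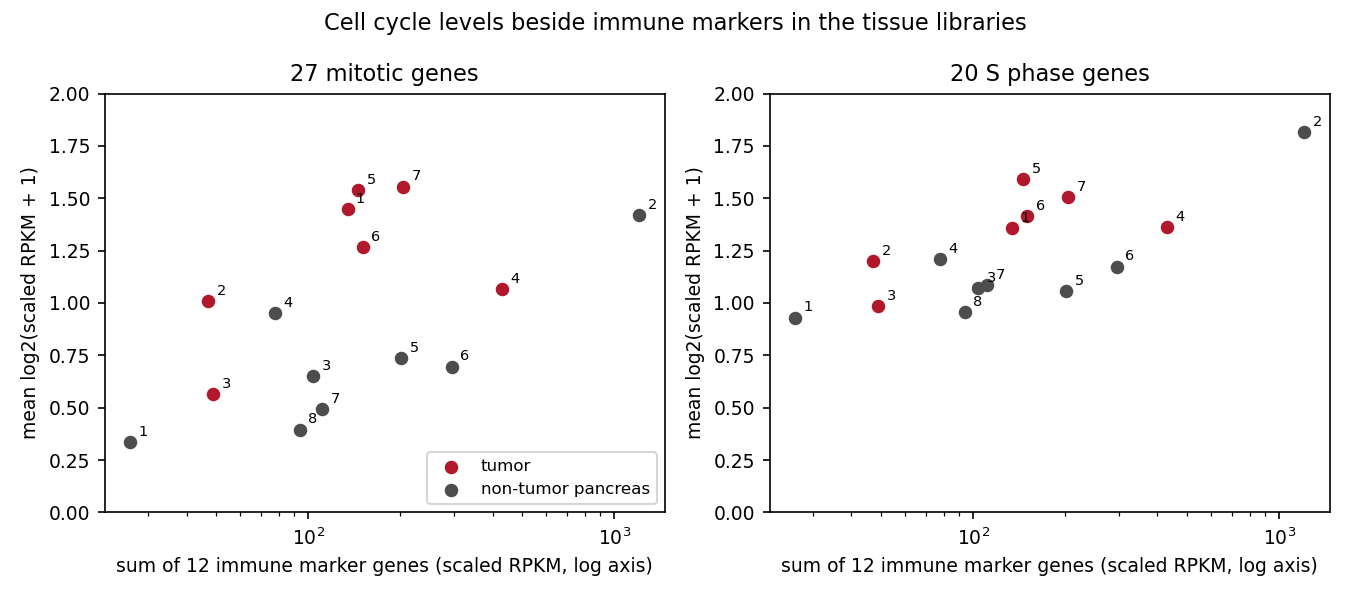
Mean log2 level of the 27 mitotic genes (left) and the 20 S phase genes (right) against the summed scaled RPKM of 12 immune marker genes (log axis), for 7 tumors (red) and 8 non-tumor pancreas libraries (grey), numbered by replicate. Non-tumor library 2, at 1208 on the immune axis, is far right of all other libraries. Tumors 1, 5 and 7 reach as high a mitotic level with immune sums of 134 to 204.

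Wider lists of related genes, none of them among the 47, were counted without the filter, against the background of 34.5% higher and 16.4% lower. Of 60 further replication and repair genes 22 rose and 3 fell. The values that follow, and the calls behind them, are from the filtered fit, where 10 rose and 4 fell of 29 tested. Orc6, a subunit of the origin recognition complex, rose by 1.19 ± 0.12 and Dut, which clears dUTP, by 0.97 ± 0.13. Gmnn, the geminin gene that blocks relicensing, fell by 0.69 on the log2 scale and Pole3, a polymerase epsilon subunit, fell by 0.70, although both had a positive sign on the deposited scale (0.49 and 0.68). Of 65 further mitotic genes with a value 41 rose and 1 fell. In the filtered fit 15 of 20 rose and 1, the securin gene Pttg1, fell (−0.59 ± 0.11, positive at 0.87 on the deposited scale).

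Spc25, which encodes a subunit of the NDC80 kinetochore complex, had the largest change of the further mitotic genes that the rule named. It had 25.6, 54.2, 67.6, 42.4, 34.5, 19.6 and 53.3 scaled RPKM in tumors 1 to 7, against 0.286 to 2.64 in non-tumor pancreas. Its log2 fold change was 4.00 ± 0.26 (adjusted p = 8.51e-10, limma). Tumor 3, the tumor with the lowest mitotic genes, had the highest Spc25. Sorted alpha cells had 24.2 to 39.2 scaled RPKM of Spc25 in knockouts and 5.72, 26.0 and 6.19 in heterozygotes, above Mki67 in each of these 8 libraries. Its annotated exons overlap no other gene's exons in GENCODE M21.

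Genes upstream and downstream of the 2 classes gave mixed counts. Of 14 regulators of the RB, E2F and MuvB group 6 rose and 1 fell without the filter, and 5 rose and 1 fell of 9 in the filtered fit. Rb1, which restrains E2F, rose by 0.67 ± 0.12 and its partner Rbbp4 by 0.69 ± 0.10, while Lin37, a MuvB subunit, fell by 1.40 on the log2 scale, with 0.11 on the deposited scale. Of 17 anaphase-promoting complex genes 10 rose and 1 fell without the filter. In the filtered fit 9 of 13 rose, led by Cdc23 and Anapc4 (0.95 ± 0.09), and 1, Anapc13, fell by 0.61 on the log2 scale, with 1.03 on the deposited scale. The background in the filtered fit was 44.9% higher and 22.8% lower. With centring after the pseudocount the counts turned to 5 higher and 20 lower of 37 replication genes, 6 and 4 of 24 mitotic genes, 3 and 5 of 11 regulators and 9 and 2 of 14 anaphase-promoting complex genes.

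In sorted alpha cells no cell cycle gene was called between knockouts and heterozygotes. Of the 47 genes 11 S phase and 5 mitotic genes passed the filter of 1 scaled RPKM in 3 libraries, and none was called in limma. The background was 0.23% higher and 0.11% lower of 10866 genes, so few genes of any kind were called. Over the other settings none of the 47 was called, with a background of 0.159% higher and 0.103% lower on the deposited scale, 0.215% and 0.0933% with centring after the pseudocount, 0.149% and 0.0187% with centring after a pseudocount of 0.1, 0.261% and 0.168% with quantile normalization, 0.515% and 0.35% with array weights, and 0.0184% and 0% with the replicate block. At an unadjusted p under 0.05 there were 2 of these 16 genes, E2f2 and Cdk1, against 10.6% of all genes. E2f2 and Cdk1 met the filter through the knockouts alone, the group where they were higher. None was called without the filter either, against 0.0307% higher and 0% lower of 19527 genes, where 3 S phase and no mitotic genes had an unadjusted p under 0.05. The values themselves were sparse: 10 to 18 of the 47 genes were at 0 in each heterozygous library and 0 to 13 in each knockout library, and the depth of these libraries is unknown.

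E2f2 was the nearest to a difference. It had 2.75, 4.46, 4.74, 2.59 and 7.42 scaled RPKM in knockout alpha cells 1 to 5, against 0.0185, 0.02 and 0.695 in heterozygous alpha cells 1 to 3. Every knockout library lay above every heterozygous one. The log2 fold change was 2.09 ± 0.47 with an adjusted p of 0.101, and adjusted p ran from 0.0852 to 0.558 over the other settings, all in limma. E2f2, Mcm3, Cdk1 and Cenpf were the 4 of 47 genes without overlap, all higher in knockouts. Of the 16 that passed the filter these were E2f2 and Cdk1, and of the 10866 genes that passed, 3.99% were wholly higher and 3.49% wholly lower. Both met that filter through the knockouts alone, so no weight is placed on their lack of overlap. Mcm3 and Cenpf were at 0 in all 3 heterozygotes, with knockout values as low as 0.0356 and 0.00289. E2f1 had 0.159, 0.236, 1.71, 1.93 and 3.57 in knockouts and 0, 0.0793 and 0.272 in heterozygotes, and the groups overlapped (0.99 ± 0.49, adjusted p = 0.495, limma).

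Mitotic genes varied between single alpha cell libraries, and knockout 3 was the highest knockout for 11 of the 27, with none of them at 0. Cdk1 had 2.72, 2.39, 1.07, 0.217 and 0.121 scaled RPKM in knockouts and 0, 0.0229 and 0 in heterozygotes (1.02 ± 0.47, adjusted p = 0.467, limma). Mki67 had 0.730, 0.501, 3.91, 1.67 and 3.21 in knockouts and 1.24, 1.18 and 0.0133 in heterozygotes (0.66 ± 0.53, adjusted p = 0.685, limma), and the knockouts high in Mki67 were those low in Cdk1. Top2a had 1.60, 0.0133, 3.38, 0.878 and 0.734 in knockouts and 0.608, 0.603 and 0.188 in heterozygotes. Nusap1 had 15.8 in knockout 1 and at most 0.826 in any other alpha cell library. Kif20a was lower in knockouts on average (−0.98 ± 0.53, adjusted p = 0.524, limma) with a single heterozygous library at 17.1, the other alpha cell libraries holding 2.07 to 3.62. Cdc23, opposite 29.3% of the Kif20a exon bases, ran from 3.25 to 31.8 in heterozygotes and from 4.63 to 9.02 in knockouts.

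S phase genes were low in both genotypes. Pcna had 0.254, 0.135, 1.11, 1.92 and 1.30 scaled RPKM in knockouts and 2.1, 4.09 and 1.42 in heterozygotes (−0.89 ± 0.48, adjusted p = 0.528, limma). Mcm2 had 2.25, 0.344, 2.20, 1.23 and 0.698 in knockouts and 0.285, 0 and 0.745 in heterozygotes (0.76 ± 0.44, adjusted p = 0.559, limma). Mcm5 reached 0.489 in knockouts and 0.0411 in heterozygotes. Knockout libraries 1 and 2 and heterozygous libraries 1 and 2 had 15000 or fewer genes detected, and the other 4 had more. Within the larger libraries the knockout mean minus the single heterozygous value was 0.44 for the mitotic level and 1.72 for E2f2 on the log2 scale, and within the smaller ones the difference was −0.07 and 2.15.

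Markers of other cells were uneven among the sorted samples. The immune sum was 6.28, 137, 33.9, 15.6 and 234.5 scaled RPKM in knockouts 1 to 5 and 2.72 to 16.3 in heterozygotes, and acinar markers summed to 6.07 to 58.8 in knockouts and 8.33, 2710 and 406 in heterozygotes 1 to 3. Gcg was at 308900 or more in all 5 knockouts and at 232300 or more in all 3 heterozygotes. The part of the other cells in the cell cycle values was not tested. No gene of the wider lists was called in alpha cells either, out of 28 replication, 17 mitotic, 11 regulator and 14 anaphase-promoting complex genes tested in limma. Of these 3, 2, 0 and 1 had an unadjusted p under 0.05.

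**Figure D5:**
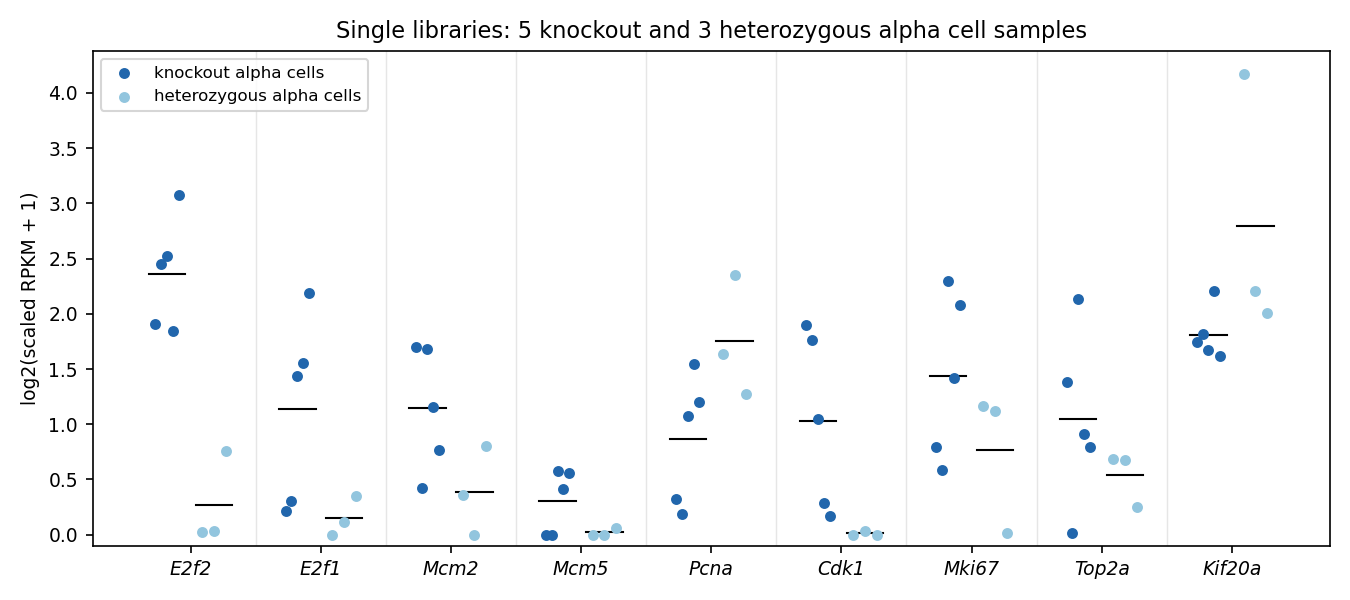
Log2(scaled RPKM + 1) of 9 genes in each of 5 knockout (dark blue) and 3 heterozygous (light blue) alpha cell libraries, with group means as lines. E2f2 and Cdk1 show no overlap, and the other genes scatter across both groups, with a single heterozygous library at 17.1 scaled RPKM for Kif20a.

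Tumors and alpha cells lie in different tables. Apart from the ratio of the classes, they were set side by side only by rank among the 19133 genes in both. The median mitotic gene stood at the 49.3rd to 63.9th percentile of its library in tumors, the 43.8th to 61.2nd in non-tumor pancreas, the 44.5th to 52.2nd in knockout alpha cells and the 38.7th to 54.0th in heterozygous alpha cells. The median S phase gene stood at 56.6 to 67.2 in tumors, 57.6 to 72.6 in non-tumor pancreas, 53.9 to 57.3 in knockout and 49.5 to 54.7 in heterozygous alpha cells. By this measure tumors 1, 5 and 7, at 62.7 or higher, had the highest mitotic ranks of the 23 libraries, and tumor 3, at 49.3, lay within the alpha cell ranges. E2f1 stood at 72.6 to 85.2 in tumors, 53.7 to 72.8 in non-tumor pancreas, 52.5 to 76.5 in knockout and 23.3 to 51.1 in heterozygous alpha cells. Low genes tie at 0 in the alpha cell libraries, so these ranks carry the detection limit of each library.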

How the data were processed

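Bulk RNA-seq libraries, prepared with a TruSeq RNA kit per the labels' protocols, were analysed from 2 deposited tables, 1 of sorted alpha cells and 1 of tissues. The authors deposited RPKM per gene, a unit inferred from the values and gene lengths. Per the submitters' processing notes the tools were CASAVA 1.8 and GSNAP and the build GRCm38, with no role given. Each library was divided by its median ratio to the geometric mean library over genes of at least 1 RPKM in every library of its table (4533 tissue and 4891 alpha cell genes), and log2(scaled RPKM + 1) was tested with limma 3.58.1 (trend, two-sided, R 4.3.3), separately per table, for genes at 1 or more in 7 tissue or 3 alpha cell libraries. On this log2(scaled RPKM + 1) scale, changes of low genes come out too small. P-values were adjusted over all genes tested by Benjamini-Hochberg, at a threshold of 0.05. The script was tested on simulated data. The filtered test was the planned one, and the tissue counts lead with the unfiltered alternative because the filter can be passed through the higher group alone.

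Replicates are those the labels number, with no pairing, and p-values measure the spread between these libraries only. Class levels are means of log2 values with no test. Positions and exon overlaps are from GENCODE M21 (GRCm38). Shares of exon bases are over all annotated exons, which are not the lengths that were counted. Alternatives were the deposited scale, centring after the pseudocount (1 or 0.1), quantile normalization, a pseudocount of 0.1 or 0.01, a filter of none or of a mean of 5, array weights, a replicate block, a covariate for genes detected (alpha cells) and each library left out. The members, lists and per-library genes were chosen with earlier results of these data known. By rule, all 47 genes could be named, values per library were given for Mki67, Top2a, Cdk1, Mcm5, Pcna and the 3 of lowest p per class and direction, and from other lists the 3 of lowest p per direction could be named. RPKM gives no depth for the alpha cell table, and the recovered tissue reads are a lower bound up to 1 common factor. No count model was used.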

Additional observations from a re-analysis of the deposited data

Results flagged for a closer look

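Among 76 sets of values, 1 gene or level in 1 group each, 10 held a library far from the rest of its group. Chance gives about 1 in 20. Of the 10, 9 were in non-tumor library 2, on log2(scaled RPKM + 1). It had 2.39 for Mcm2, where the other 7 non-tumor libraries lay between 1.48 and 1.76, and 2.28 for Mcm4 (others 0.98 to 1.38). For Mcm5 it had 2.75 (others 0.77 to 1.53), for Mcm6 3.32 (others 1.26 to 2.15) and for Mcm7 2.49 (others 1.39 to 1.84). Pcna stood at 2.08 (others 0.80 to 1.41), Rrm1 at 2.69 (others 0.99 to 1.64) and Mki67 at 2.51 (others 0.41 to 1.32). The mean S phase level there was 1.82, against 0.93 to 1.21 in the others. These sets share 1 library and are not independent. The remaining one was Gins2 in knockout alpha cell library 5, at 2.65 where the other 4 knockouts lay between 1.26 and 1.48.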

How the results depend on the processing

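With single libraries left out, tissue results kept direction and call in 380 cases, gained the threshold in 14 and lost it in 11. Counts of genes called higher in tumors follow, with the share of all genes higher in brackets. They were 14 S phase and 16 mitotic on the deposited scale (90.7%, 0 S phase lower). With centring after the pseudocount they were 2 and 1 (28.6%, 6 S phase and 1 mitotic lower). After a pseudocount of 0.1 they were 2 and 4 (31.3%, 2 S phase lower, chosen after seeing the data). Quantile normalization gave 2 and 2 (32.6%, 2 S phase lower), no filter 5 and 14 (34.5%) and array weights 6 and 14 (49.6%). No filter without non-tumor library 2 gave 9 and 24 (36.5%, chosen after seeing the data). With the replicate block 2 S phase and 6 mitotic genes were higher (42.1% of all genes). Same-numbered libraries correlated at −0.242 to 0.166 in tissues and −0.002 to 0.078 in alpha cells, with 1 of 7 and 1 of 3 numbers matching best, so the numbers were not taken to pair samples. Leaving out 1 library gave 2 to 5 of 12 S phase and 8 to 14 of 15 mitotic genes higher, with 1 and 0 lower. The share of all genes was 44.9% higher and 22.8% lower with all libraries. It was 47% and 23.4% without non-tumor library 2, and 44.9% and 22% without tumor 3. In alpha cells 0 were called, where 0.23% of all genes were higher and 0.11% lower with all libraries. With centring after the pseudocount signs turned for Pcna (−0.44) and Gins2 (−0.53), which passed there, for Plk1 (−0.15), Tpx2 (−0.0043) and Nusap1 (−0.10), and for Mcm3 (−0.32), Mcm4 (−0.27), Mcm5 (−0.22), Mcm6 (−0.18), Mcm7 (−0.23), Mki67 (−0.14) and Birc5 (−0.32), which passed in neither fit. Ccne1, E2f2, Kif11 and Aurka, positive without the filter, had no positive sign with that centring. Signs also turned for Rrm2 (0.91) and Tyms (0.72) on the deposited scale. The tumor minus non-tumor S phase level was 1.11 on the deposited scale and −0.43 with centring after the pseudocount, and the mitotic level 1.26 and −0.277. The cause was not tested. A mean of 5 RPKM left none of the 47 genes. In alpha cells no setting called a gene. Depth limits the non-tumor values, with 23 genes at a median under 10 reads.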
